A study of Mus musculus with 12 samples.

Results

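The stress response of the endoplasmic reticulum (ER), known as the unfolded protein response, and its chaperones were followed through 43 genes in 4 groups of aged Tg2576 mice. They were taken from a list of gene symbols, and each gene was read from the probe set annotated to that symbol alone or, where there were several, from the one with the highest mean over all arrays. Of the 43 genes, 42 had a probe set of their own, out of 22180 genes with one in the series; Pdia4 did not, because its probe set is shared with another gene, and it has no value here. All 42 measured genes lay above the log2 value of 4 that served as the filter on low values on all 12 arrays, and their lowest value was 5.85. Hippocampal RNA was hybridized to Affymetrix Mouse Gene 2.0 ST arrays, 1 array per mouse and 3 mice per group, and the values are log2 intensities after robust multichip averaging (RMA). The mice were females between 16 and 18 months old that carried, in every group including the controls, a human amyloid precursor protein transgene with the Swedish mutation under a hamster prion protein promoter, and there was no wild type group on these arrays. The labels give the strain as B6.Cg-Tg(APPswe)E1-2Dbo/J, whereas the study's methods describe Tg2576 mice on a C57BL/6/SJL background. Mice received vehicle, CM-695, CM-414, or SAHA together with tadalafil over 4 weeks, underwent fear conditioning and a water maze in the later weeks of treatment, and were killed 24 h after its end. CM-695 inhibits histone deacetylase 6 in preference to class I histone deacetylases and also phosphodiesterase 9, CM-414 inhibits histone deacetylases and phosphodiesterase 5, SAHA (vorinostat) is a histone deacetylase inhibitor, and tadalafil is a phosphodiesterase 5 inhibitor. CM-695 was injected intraperitoneally at 40 mg/kg, 6 times a week, in saline with 10% DMSO and 10% Tween-20, and the vehicle label names saline. The doses of CM-414 and of SAHA with tadalafil are not given in the sources used here, so differences between treatments are differences between groups as given and not at matched doses.

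The ER folds secreted and membrane proteins. When unfolded chains accumulate, BiP (the product of Hspa5) leaves the sensors ATF6, IRE1 (Ern1) and PERK (Eif2ak3) in the ER membrane and these become active. ATF6 is cut to a transcription factor, IRE1 splices the Xbp1 mRNA into the form that encodes the active factor XBP1, and PERK slows translation while favouring ATF4 and its target Ddit3 (CHOP). The chaperone genes are the classical targets of ATF6 and XBP1, which act at the ER stress element in their promoters. In neurons and in brains with amyloid the response has been studied for its part in handling misfolded protein.

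The promoters of the chaperone genes are shown first, because 6 of the 10 genes called between CM-695 and SAHA with tadalafil, below, carry the element in this window. In RefSeq promoter windows (mouse GRCm38.p6, 250 bases before to 50 after the gene start), 35 of the 43 genes were present. Both strands were searched for the ER stress element (ERSE), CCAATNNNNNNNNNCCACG, and for the shorter ERSE-II, which is ATTGG and CCACG with 1 base between them. ERSE was found in 9 of the 35 genes (25.7%), against 37 of 27025 genes in the whole table (0.137%), and ERSE-II in 2 of 35 (5.71%), against 12 of 27025 (0.0444%). The genes were listed as stress response genes, and chaperone genes are classical targets through this element. These shares therefore describe the list and test nothing. The genes with ERSE were Hspa5, Hsp90b1, Calr, Canx, Pdia6, Creld2, Dnajc3, Derl3 and Syvn1, and those with ERSE-II were Herpud1 and Dnajb11, the latter past the gene start. Hsp90b1 held 2 elements, 1 on each strand. The Hspa5 window is given in full up to the start (chr2:34771840-34772089, plus strand) and the others as the stretch around the element: Hsp90b1 (chr10:86705503-86705686, minus strand), Calr (chr8:84847045-84847123, minus strand), Pdia6 (chr12:17266461-17266539, plus strand), Creld2 (chr15:88819490-88819568, plus strand), Dnajc3 (chr14:118937797-118937875, plus strand), Canx (chr11:50325770-50325848, minus strand) and Herpud1 (chr8:94386347-94386417, plus strand). All are upstream sequence written 5′ to 3′ on the gene's strand, with the element in capitals.
Hspa5: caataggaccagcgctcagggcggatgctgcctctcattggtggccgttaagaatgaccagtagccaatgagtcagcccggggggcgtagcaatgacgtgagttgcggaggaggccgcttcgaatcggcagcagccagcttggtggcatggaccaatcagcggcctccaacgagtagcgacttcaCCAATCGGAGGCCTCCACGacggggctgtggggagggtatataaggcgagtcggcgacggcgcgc
Hsp90b1: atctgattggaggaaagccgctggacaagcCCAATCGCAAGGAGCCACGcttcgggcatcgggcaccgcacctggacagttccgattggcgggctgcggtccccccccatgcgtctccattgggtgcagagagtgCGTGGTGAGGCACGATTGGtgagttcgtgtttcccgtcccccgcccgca
Calr: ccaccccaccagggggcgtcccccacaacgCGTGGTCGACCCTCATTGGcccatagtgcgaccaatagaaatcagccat
Pdia6: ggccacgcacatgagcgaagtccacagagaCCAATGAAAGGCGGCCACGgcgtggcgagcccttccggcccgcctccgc
Creld2: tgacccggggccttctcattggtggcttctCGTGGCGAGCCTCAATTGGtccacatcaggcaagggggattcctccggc
Dnajc3: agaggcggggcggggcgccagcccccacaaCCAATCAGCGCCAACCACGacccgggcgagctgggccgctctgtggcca
Canx: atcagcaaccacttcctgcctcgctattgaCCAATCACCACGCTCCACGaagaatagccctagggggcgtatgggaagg
Herpud1: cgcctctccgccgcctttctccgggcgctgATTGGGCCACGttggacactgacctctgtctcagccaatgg

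In Hspa5 the element lay 65 to 47 bases before the start, in Pdia6 98 to 80, in Dnajc3 105 to 87, in Creld2 126 to 108, in Canx 145 to 127 and in Calr 162 to 144. The other elements of the response were less particular to these promoters. The UPR element TGACGTGG was present in 3 of 35 (8.57%; Sec24d, Txndc11 and Txndc5) against 0.714% of the table, and TGATGNAA, an amino acid response element of the kind bound by ATF4, in 3 of 35 (8.57%; Herpud1, Trib3 and Txndc5) against 4.51%. The letters CCACG alone, which overlap with ERSE and ERSE-II, were present in 27 of 35 windows (77.1%) against 35.5%. A match is a description of these letters and not evidence of binding. The search took exact letters only, so genes without a match may hold an element with changed letters in this window, or one outside it.

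Correlations between arrays lay between 0.978 and 0.991, and the arrays of a group were spread along the first principal component (22.7% of the variance). Vehicle replicate 2 scored 40.3 on it, the third CM-695 array 35.6, and the first array of SAHA and tadalafil 24.1, which were the highest scores. The lowest were -30.3 for the second array of SAHA and tadalafil and -25.7 for vehicle replicate 3. Calls, medians and counts of separated genes over the set were also computed without the 3 highest and, apart from that, without the 2 lowest arrays, both chosen after seeing the data. All 9 markers of hippocampal neurons were above the filter on every array, with a summed level between 13.55 and 13.79 on the log2 scale, and so were all measured markers of the other cell types. The summed level of 9 of 10 microglial markers was 11.51 to 11.80 in vehicle, 11.23 to 11.46 with CM-695, 11.33 to 11.47 with CM-414 and 11.40 to 11.63 with SAHA and tadalafil; it was lower on every CM-695 and CM-414 array than on every vehicle array. That of 10 thalamus and habenula markers, which report tissue next to the hippocampus, reached 12.16 on a vehicle array and 12.24 on a SAHA and tadalafil array, against 10.97 to 11.22 on the CM-695 and CM-414 arrays. That of 7 choroid plexus markers ran from 11.67 to 13.93, with wide ranges in every group. In a whole tissue fewer cells of a type and less RNA per cell cannot be told apart, and the part of these markers in the results below was not tested.

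Differences between groups were tested with limma over all probe sets above the filter, and a gene is called here when its unadjusted p was under 0.01, the study's own threshold. No gene of the set had a Benjamini-Hochberg adjusted p under 0.05 in any of the 6 comparisons or in the test over all groups, beside 1 of 35199 probe sets (0.00284%) for SAHA and tadalafil against vehicle and 0 elsewhere. The calls are therefore ranked differences that do not pass the correction. The mice of a group are labelled as biological replicates.

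Across the 4 groups, most genes had their highest mean with CM-695, and the lowest was about as often that of vehicle as that of SAHA and tadalafil. The mean of CM-695 was the highest of the 4 for 25 of 42 genes, that of CM-414 for 10, that of SAHA and tadalafil for 4 and that of vehicle for 3. The lowest mean was that of SAHA and tadalafil for 17 genes and that of vehicle for 16. These counts were not made over all probe sets, so an equal share per group is not their reference. Of probe sets with a single symbol, 55.2% were higher with CM-695 than with vehicle. The share was 51.5% against CM-414 and 59.8% against SAHA and tadalafil. By limma's F test over the groups, 5 of 42 genes were called (11.9%), against 1.62% of 34785 probe sets: Hspa5, Pdia6, Sdf2l1, Xbp1 and Calr, all with CM-695 as the highest group. The smallest adjusted p was 0.443 (Hspa5). Without the 3 highest arrays on the first component 2 genes were called, and without the 2 lowest 3. No share over all probe sets is given for the F test on these arrays, so these counts have no background beside them. Read array by array as the median over the 42 genes of the deviation from each gene's own mean, CM-695 lay at 0.12, 0.04 and 0.11, CM-414 at 0.06, 0.01 and 0.02, vehicle at -0.01, -0.11 and -0.04, and SAHA and tadalafil at -0.10, -0.06 and -0.05. All CM-695 arrays were above all vehicle and all SAHA and tadalafil arrays on this measure, while CM-695 overlapped with CM-414. Vehicle replicate 2 was the lowest of the 12 arrays for 13 genes.

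**Figure D1:**
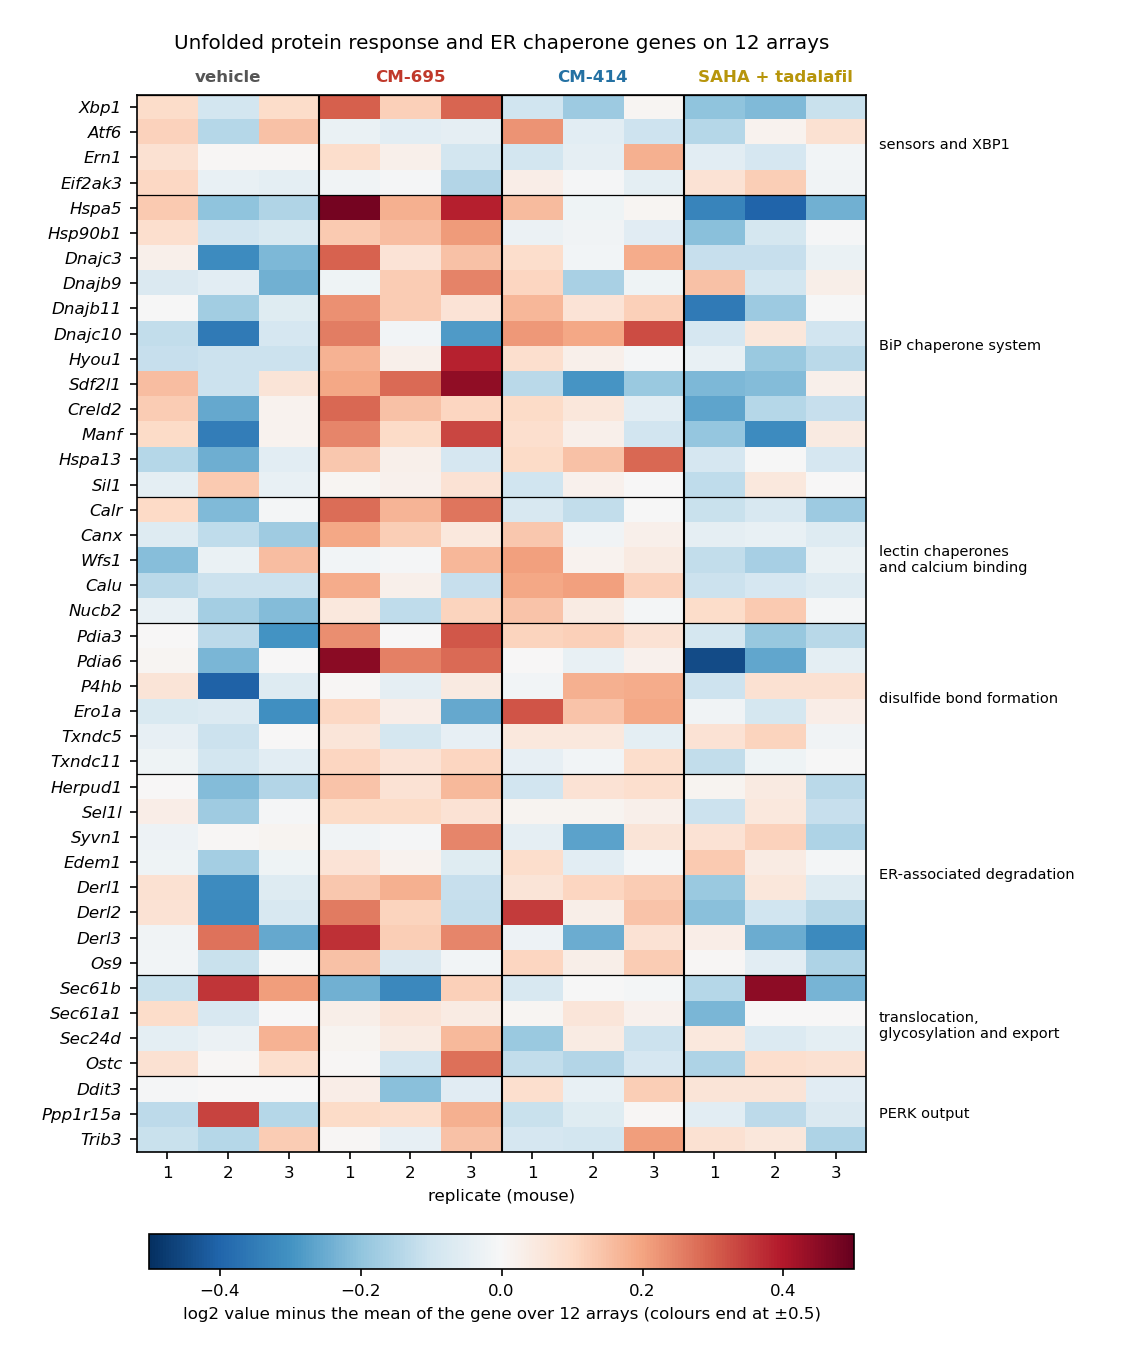
Heat map of the 42 measured genes (rows, by role) on the 12 arrays (columns, 3 mice per group), coloured by the log2 value minus the mean of the gene over the 12 arrays, with colours ending at ±0.5. In the BiP rows the CM-695 columns are mostly red, the SAHA and tadalafil columns and vehicle replicates 2 and 3 are mostly blue, and the rows of the sensors below Xbp1 show no group pattern.

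The BiP chaperone system, with 12 genes, held the largest differences. Hspa5 (probe set 17370103), which encodes BiP, read 9.08, 8.75 and 8.80 in vehicle, 9.43, 9.13 and 9.34 with CM-695, 9.11, 8.93 and 8.96 with CM-414, and 8.62, 8.55 and 8.71 with SAHA and tadalafil. Every CM-695 array was above every array of the other 3 groups, and every SAHA and tadalafil array was below all the others. Against SAHA and tadalafil, Hspa5 was 1.59-fold higher with CM-695 (log2 0.67 ± 0.11 SE, limma adjusted p = 0.36) and 1.30-fold higher with CM-414 (log2 0.37 ± 0.11, adjusted p = 0.766). The first of these was called under all 19 alternatives, with values between 0.61 and 0.76, and the second only without SAHA and tadalafil replicate 3 among the 6 ways to leave out an array (0.32 to 0.42). Against vehicle, CM-695 differed by 0.42 (95% interval 0.11 to 0.73, limma unadjusted p = 0.014), which was not called and was called in 3 of 19 alternatives. The study itself, with a different set of probe sets kept, names this gene (as BIP or GRP78) as overexpressed with CM-695 against vehicle. It also reports a significant increase of GRP78 mRNA by quantitative PCR. The difference between CM-695 and CM-414 was 0.30 (95% interval 0.05 to 0.54) and that between SAHA with tadalafil and vehicle was -0.25 (95% interval -0.50 to -0.01), neither of which was called.

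Sdf2l1, an ER protein that works with the cochaperone ERdj3, separated CM-695 from both other treatments. It read 7.53, 7.27 and 7.44 in vehicle, 7.57, 7.66 and 7.82 with CM-695, 7.24, 7.08 and 7.19 with CM-414, and 7.15, 7.16 and 7.40 with SAHA and tadalafil. All CM-695 arrays were the highest and all CM-414 arrays lay below all vehicle arrays. It was 1.43-fold higher with CM-695 than with CM-414 (log2 0.51 ± 0.11 SE, limma adjusted p = 0.62), and stayed called whichever array was left out (0.45 to 0.57). Against SAHA and tadalafil the difference was 0.45 ± 0.11 (adjusted p = 0.474), and without the 3 highest arrays on the first component it was 0.33 and no longer called, and without the 2 lowest it was 0.41 and also not called. CM-414 differed from vehicle by -0.25 (95% interval -0.48 to -0.01), which was not called.

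Hyou1 (GRP170, which exchanges nucleotide on BiP) was nearly constant in vehicle, at 9.06, 9.07 and 9.07. It read 9.35, 9.20 and 9.56 with CM-695, 9.26, 9.20 and 9.17 with CM-414, and 9.14, 8.99 and 9.04 with SAHA and tadalafil. CM-695 and CM-414 arrays all lay above all vehicle arrays and above all SAHA and tadalafil arrays. The difference between CM-695 and SAHA with tadalafil was 0.31 ± 0.09 (limma adjusted p = 0.556). The call ended without CM-695 replicate 1 or 3, or SAHA and tadalafil replicate 2 or 3 (0.22 to 0.39 over the 6 arrays left out in turn). Hsp90b1 (GRP94, the ER member of the Hsp90 family) read 11.22, 11.04 and 11.06 in vehicle, 11.27, 11.29 and 11.35 with CM-695, 11.11, 11.12 and 11.08 with CM-414, and 10.93, 11.05 and 11.13 with SAHA and tadalafil. CM-695 was again above all others, by 0.27 ± 0.08 over SAHA and tadalafil (adjusted p = 0.556). That call held only without SAHA and tadalafil replicate 3, and the lowest value, 0.22, was found without its replicate 1.

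Creld2, an ER protein induced by ER stress, read 8.11, 7.73 and 8.0 in vehicle, 8.27, 8.13 and 8.09 with CM-695, 8.08, 8.04 and 7.93 with CM-414, and 7.72, 7.84 and 7.87 with SAHA and tadalafil. The CM-695 and vehicle arrays overlapped, through the higher of the vehicle values, while SAHA and tadalafil lay below both other treatments. CM-695 exceeded SAHA and tadalafil by 0.35 ± 0.11 (limma adjusted p = 0.556), a call that held only without CM-695 replicate 3 among the left-out arrays (0.30 to 0.39). Dnajb11 (ERdj3, a cochaperone that brings clients to BiP) read 8.18, 8.01 and 8.12 in vehicle, 8.41, 8.31 and 8.25 with CM-695, 8.35, 8.25 and 8.30 with CM-414, and 7.83, 8.0 and 8.18 with SAHA and tadalafil. All CM-695 and CM-414 arrays lay above all arrays of the remaining groups and overlapped with each other. CM-695 exceeded SAHA and tadalafil by 0.32 ± 0.10 (adjusted p = 0.567), and the difference between CM-695 and CM-414 was 0.02, with a 95% interval of -0.20 to 0.24. The call ended without CM-695 replicate 1 or 2, or SAHA and tadalafil replicate 1 or 2 (0.23 to 0.41 over the arrays left out).

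**Figure D2:**
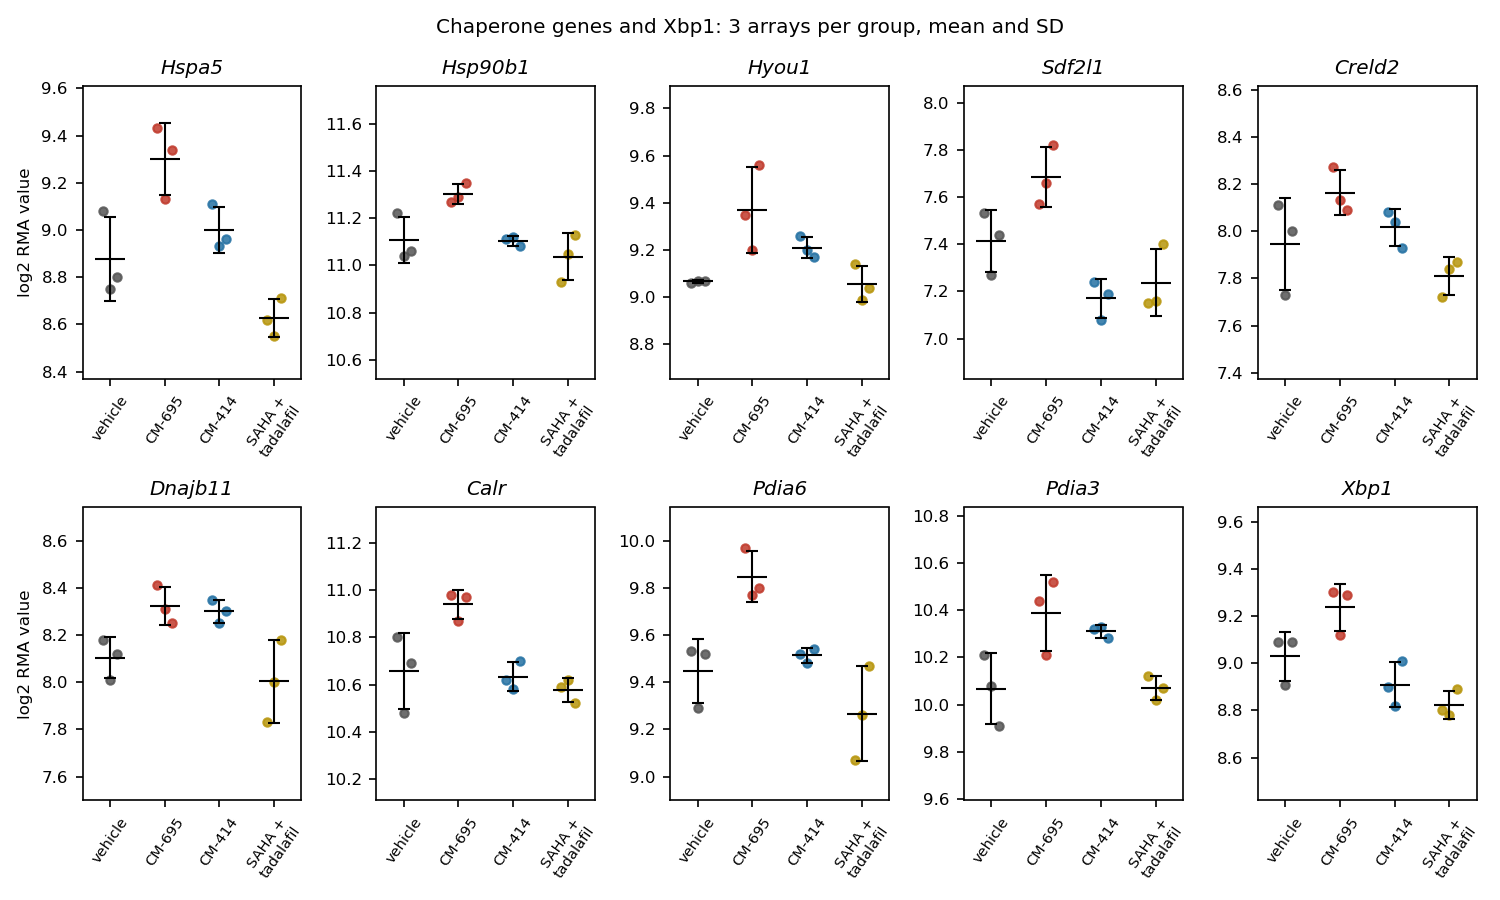
Log2 RMA values of the 10 genes called between CM-695 and SAHA with tadalafil, 1 point per array, with the mean and SD of the 3 arrays of each group as a line and bars; all panels span the same log2 range. The CM-695 points lie above all SAHA and tadalafil points in every panel, for Hspa5 at 9.13 to 9.43 against 8.55 to 8.71.

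In 2 other genes of the BiP system the highest group was CM-414. Dnajc10 (ERdj5, a cochaperone that reduces disulfide bonds of misfolded proteins) read 9.20, 8.97 and 9.24 in vehicle, 9.58, 9.31 and 9.04 with CM-695, 9.54, 9.52 and 9.65 with CM-414, and 9.24, 9.38 and 9.23 with SAHA and tadalafil. The CM-414 arrays were above all vehicle arrays, whereas the CM-695 arrays ran from below to above them. The difference between CM-414 and vehicle was 0.43 ± 0.13, or 1.35-fold (limma adjusted p = 0.404), and was called only without vehicle replicate 3 among the left-out arrays (0.35 to 0.48). Hspa13 (STCH, an Hsp70 family member of microsomes) read 7.83, 7.73 and 7.92 in vehicle, 8.11, 8.0 and 7.89 with CM-695, 8.07, 8.12 and 8.26 with CM-414, and 7.89, 7.97 and 7.89 with SAHA and tadalafil. All CM-414 arrays lay above all vehicle and all SAHA and tadalafil arrays. CM-414 exceeded vehicle by 0.32 ± 0.09 (adjusted p = 0.387), and the call ended without vehicle replicate 1 or 2 or CM-414 replicate 3 (0.27 to 0.37 over the arrays left out). The remaining genes of this group, Dnajc3, Dnajb9, Manf and Sil1, were not called in any comparison. Manf, which encodes a secreted factor induced by ER stress, had its largest difference between CM-695 and SAHA with tadalafil, at 0.38 (95% interval 0.09 to 0.67). Sil1, another nucleotide exchange factor of BiP, stayed between -0.04 and 0.06 in all comparisons.

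Among the lectin chaperones and calcium-binding proteins, Calr (calreticulin, which retains glycoproteins until they are folded) followed the pattern of Hspa5. It read 10.80, 10.48 and 10.69 in vehicle, 10.98, 10.87 and 10.97 with CM-695, 10.62, 10.58 and 10.70 with CM-414, and 10.59, 10.62 and 10.52 with SAHA and tadalafil. All CM-695 arrays were above all 9 others, and the other groups overlapped. CM-695 exceeded SAHA and tadalafil by 0.36 ± 0.09 (1.29-fold, limma adjusted p = 0.496), called under all 19 alternatives, and CM-414 by 0.31 ± 0.09 (adjusted p = 0.803). The second call ended without CM-414 replicate 1 or 2 or CM-695 replicate 1 or 3 (0.28 to 0.34 over the arrays left out). Canx, its membrane-bound relative, was not called: CM-695 exceeded vehicle by 0.24 (95% interval 0.02 to 0.46) and CM-414 by 0.07 (-0.09 to 0.24).

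Calu (calumenin, a calcium-binding protein of the secretory pathway) resembled Dnajc10. It read 8.14, 8.17 and 8.17 in vehicle, 8.46, 8.30 and 8.16 with CM-695, 8.47, 8.48 and 8.39 with CM-414, and 8.17, 8.19 and 8.21 with SAHA and tadalafil. CM-414 arrays were above all vehicle and all SAHA and tadalafil arrays, and the CM-695 arrays spread across the range of both. CM-414 exceeded vehicle by 0.29 ± 0.08 (limma adjusted p = 0.399), called only without CM-414 replicate 3 among the left-out arrays (0.27 to 0.32). Nucb2 (nucleobindin 2, a calcium-binding protein) read 8.53, 8.40 and 8.35 in vehicle, 8.62, 8.44 and 8.68 with CM-695, 8.71, 8.61 and 8.56 with CM-414, and 8.66, 8.70 and 8.56 with SAHA and tadalafil. Vehicle was below both CM-414 and SAHA with tadalafil on every array, by 0.20 ± 0.09 and 0.21 ± 0.09, and neither difference was called. Wfs1, the gene of the ER membrane protein wolframin, was not called either and had its largest difference, 0.20, between CM-414 and SAHA with tadalafil.

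Of the 6 genes of disulfide bond formation, Pdia6 (probe set 17274249), a protein disulfide isomerase that associates with BiP, was the only gene of the whole set called between CM-695 and vehicle. It read 9.53, 9.29 and 9.52 in vehicle, 9.97, 9.77 and 9.80 with CM-695, 9.52, 9.48 and 9.54 with CM-414, and 9.07, 9.26 and 9.47 with SAHA and tadalafil. All CM-695 arrays were above all others, and the SAHA and tadalafil arrays all lay below all CM-414 arrays. The difference from vehicle was 0.40 ± 0.11 (1.32-fold, limma adjusted p = 0.871), and it was no longer called when any 1 of the 6 arrays was left out (0.32 to 0.44). The difference from SAHA and tadalafil was larger, 0.58 ± 0.11 (1.5-fold, adjusted p = 0.36), and was called under all 19 alternatives. Pdia3 (ERp57, the isomerase that works with Calr and Canx) read 10.21, 10.08 and 9.91 in vehicle, 10.44, 10.21 and 10.52 with CM-695, 10.32, 10.33 and 10.28 with CM-414, and 10.12, 10.02 and 10.07 with SAHA and tadalafil. CM-695 and CM-414 were both above all SAHA and tadalafil arrays, by 0.32 ± 0.10 (adjusted p = 0.567) and 0.24 ± 0.10. The first was called only without CM-695 replicate 2 among the left-out arrays (0.26 to 0.41).

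Ero1a, the oxidase that recharges the isomerases and a target of the PERK branch, was highest with CM-414. It read 9.18, 9.19 and 8.95 in vehicle, 9.36, 9.29 and 9.0 with CM-695, 9.57, 9.40 and 9.45 with CM-414, and 9.24, 9.17 and 9.29 with SAHA and tadalafil. The CM-414 arrays lay above those of every other group, and the rest overlapped. CM-414 exceeded vehicle by 0.37 ± 0.11 (1.29-fold, limma adjusted p = 0.404), and the call ended without vehicle replicate 3 or CM-414 replicate 1 or 3 (0.29 to 0.41 over the arrays left out). This gene has a second, dimmer probe set, on which CM-414 differed from vehicle by -0.08 ± 0.10 and CM-695 by -0.35 ± 0.13, so the 2 probe sets disagree. Derl2 also had probe sets that disagreed, at 0.19 and -0.28 for CM-695 against vehicle. P4hb, Txndc5 and Txndc11, the other isomerase and thioredoxin-type genes, were not called in any comparison and lay between -0.12 and 0.25.

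The sensors did not follow the chaperones. Atf6 read 9.35, 9.09 and 9.38 in vehicle, 9.20, 9.18 and 9.19 with CM-695, 9.46, 9.18 and 9.13 with CM-414, and 9.09, 9.25 and 9.31 with SAHA and tadalafil. Ern1 read 7.50, 7.43 and 7.43 in vehicle, 7.51, 7.45 and 7.33 with CM-695, 7.33, 7.38 and 7.6 with CM-414, and 7.37, 7.34 and 7.41 with SAHA and tadalafil. Eif2ak3 read 8.04, 7.90 and 7.89 in vehicle, 7.92, 7.93 and 7.79 with CM-695, 7.97, 7.93 and 7.89 with CM-414, and 8.01, 8.06 and 7.92 with SAHA and tadalafil. The groups overlapped in nearly every comparison of these genes, the exception being Ern1, where SAHA and tadalafil lay just below vehicle. Between CM-695 and SAHA with tadalafil the differences were -0.03 (95% interval -0.27 to 0.22) for Atf6, 0.05 (-0.14 to 0.25) for Ern1 and -0.11 (-0.29 to 0.06) for Eif2ak3. These intervals leave out a difference of the size seen for Hspa5. The sensors act through cleavage, splicing and phosphorylation, which a transcript level does not report.

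Xbp1 did follow them. It read 9.09, 8.91 and 9.09 in vehicle, 9.30, 9.12 and 9.29 with CM-695, 8.90, 8.82 and 9.01 with CM-414, and 8.80, 8.78 and 8.89 with SAHA and tadalafil. Every CM-695 array was the highest, and every SAHA and tadalafil array was below every vehicle array. CM-695 exceeded SAHA and tadalafil by 0.41 ± 0.09 (1.33-fold, limma adjusted p = 0.459), called under all 19 alternatives, and CM-414 by 0.33 ± 0.09 (adjusted p = 0.757). The second call ended without CM-414 replicate 1 or 2 or CM-695 replicate 1 or 3 (0.28 to 0.38 over the arrays left out). The probe set gives the level of the gene and does not separate spliced from unspliced Xbp1 mRNA.

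**Figure D3:**
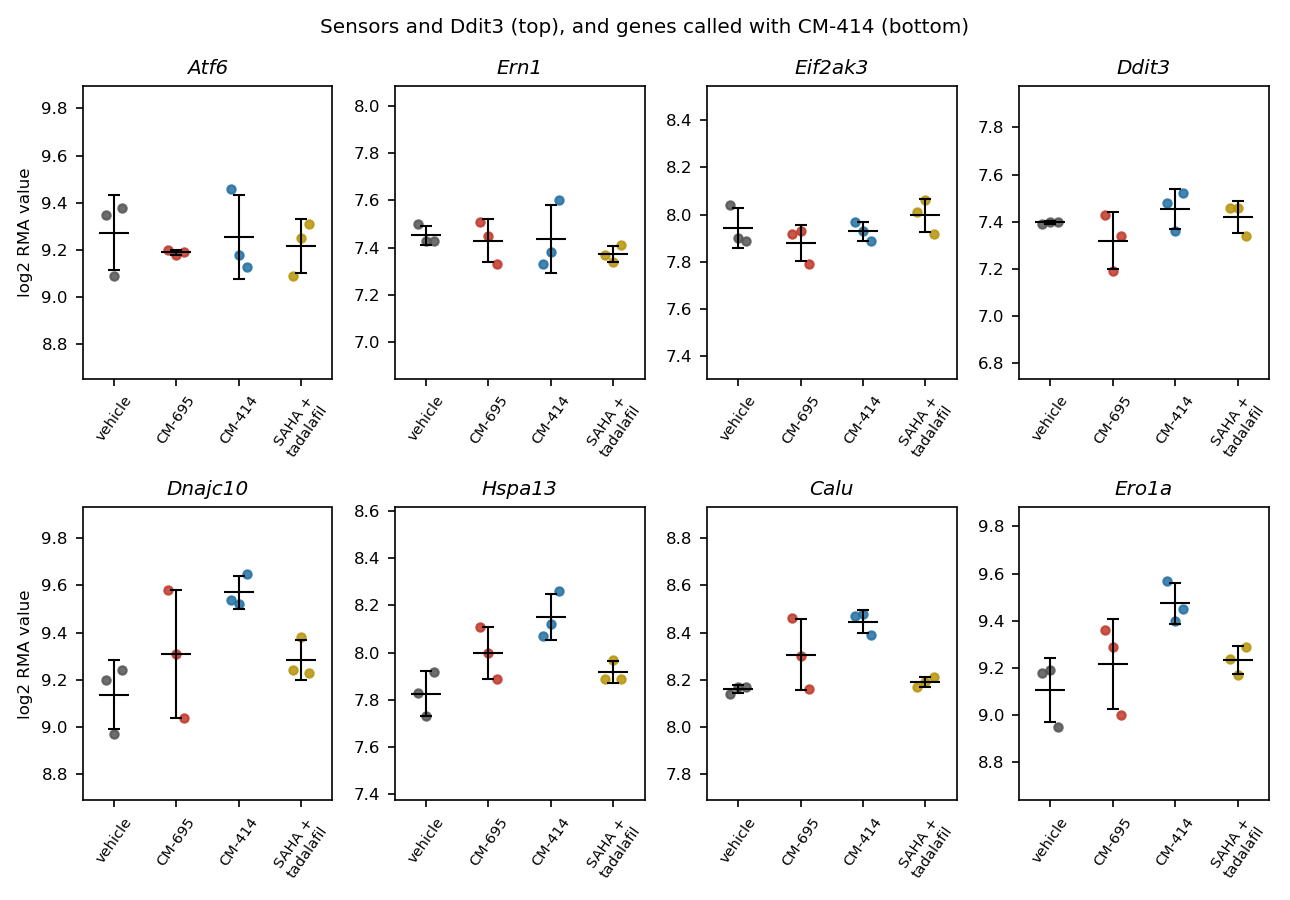
Log2 RMA values of the sensors Atf6, Ern1 and Eif2ak3 and of Ddit3 (top row), and of the 4 genes called between CM-414 and vehicle (bottom row), 1 point per array with the mean and SD of each group; all panels span the same log2 range. The groups overlap in the top row, apart from SAHA and tadalafil just below vehicle for Ern1, and the 3 CM-414 points lie above the 3 vehicle points in the bottom row.

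No output gene of PERK was called. Ddit3 (CHOP, the transcription factor tied to cell death under lasting ER stress) read 7.39, 7.40 and 7.40 in vehicle, 7.43, 7.19 and 7.34 with CM-695, 7.48, 7.36 and 7.52 with CM-414, and 7.46, 7.46 and 7.34 with SAHA and tadalafil. All treated groups overlapped with vehicle, and the difference of CM-695 from vehicle was -0.08 (95% interval -0.31 to 0.16). Trib3, a target of ATF4 and CHOP, read 6.42, 6.39 and 6.66 in vehicle, 6.54, 6.49 and 6.68 with CM-695, 6.45, 6.44 and 6.74 with CM-414, and 6.61, 6.59 and 6.38 with SAHA and tadalafil. The groups overlapped throughout, and no difference exceeded 0.08 in size. Ppp1r15a (GADD34, which restores translation) was highest on vehicle replicate 2, at 7.46, against 6.99 and 6.98 on the other vehicle arrays. With CM-695 it read 7.22, 7.21 and 7.30, which overlapped with vehicle. These values lay above every CM-414 array (7.01 to 7.13) and every SAHA and tadalafil array (6.99 to 7.07).

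The 8 genes of ER-associated degradation, which returns misfolded proteins to the cytosol, were all positive with CM-695 against vehicle (0.06 to 0.25), and none was called in any comparison. Herpud1, which organizes the degradation complex, read 9.16, 8.94 and 9.01 in vehicle, 9.30, 9.23 and 9.32 with CM-695, 9.06, 9.23 and 9.24 with CM-414, and 9.17, 9.20 and 9.02 with SAHA and tadalafil. The CM-695 arrays were above all vehicle arrays, by 0.25 ± 0.10 (95% interval 0.01 to 0.48). Derl3, a derlin of the same machinery, was 0.42 higher with CM-695 than with SAHA and tadalafil (95% interval 0.10 to 0.74). It was not called over all arrays but was called without the 3 highest arrays on the first component. Of the translocation and export genes, Sec61b, a subunit of the protein channel, varied most within groups, at 6.81, 7.28 and 7.13 in vehicle, 6.68, 6.60 and 7.04 with CM-695, 6.84, 6.92 and 6.91 with CM-414, and 6.78, 7.37 and 6.69 with SAHA and tadalafil. Its groups overlapped, and CM-695 differed from vehicle by -0.30 (95% interval -0.69 to 0.10). Sec61a1, Sec24d and Ostc differed by at most 0.18 in size.

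Taken comparison by comparison, CM-695 against vehicle had a median log2 fold change of 0.15 over the 42 genes. The median was 0.02 over 21318 probe sets with a single symbol. In all, 37 genes were positive, beside 52% of all probe sets and 55.2% of those with a single symbol. The gene called was 1 of 42, beside 1.12% of all 35195 probe sets tested (0.364% higher) and 0.572% of those with a single symbol. A single call cannot set this share apart from the background. It came from a fit of 6 arrays, and the comparisons below from fits of 12. Fitted on all 12 arrays, CM-695 against vehicle had 6 calls, beside 1.39% of all probe sets. The counts of calls are therefore not on the same basis. Separation was more frequent: in 16 of 42 genes (38.1%) all CM-695 arrays lay above all vehicle arrays, against 5.28% of all probe sets, and in 0 did they lie below (5.15%). Without the 3 highest arrays on the first component these counts were 27 (24.4% of all probe sets) and 3 (20.3%), and without the 2 lowest 20 (9.32%) and 0. Over the 6 arrays 9 of 10 thalamus and habenula markers were lower with CM-695 (median -0.28) and 8 of 9 microglial markers were lower (median -0.14), among which C1qb was called (-0.74 ± 0.20, limma adjusted p = 0.871). CM-414 against vehicle had a median of 0.07 with 28 positive (51.2% of all), against 0.01 over all, and 4 genes were called, all higher: Dnajc10, Ero1a, Hspa13 and Calu, beside 2.45% of 35303 probe sets (1.53% higher). All CM-414 arrays lay above vehicle for 10 genes (23.8%, against 9.85%) and below it for 2 (against 7.38%), and without the 3 highest arrays 11 were above (17.1% of all), without the 2 lowest 12 (15.7%). In this comparison 9 of 10 thalamus and habenula markers (median -0.35), 9 of 9 microglial markers (median -0.24) and 8 of 9 hippocampal neuron markers (median -0.13) were lower, and the astrocyte marker Gjb6 (0.47 ± 0.12, limma adjusted p = 0.385) and the endothelial marker Slco1a4 (0.47 ± 0.13, adjusted p = 0.386) were called higher. For SAHA and tadalafil against vehicle the median was -0.02 with 19 positive (47.3% of all), against -0.01 over all. Limma called 0 of 42 genes, beside 1.12% of 35199 probe sets (0.56% higher), with 3 at an unadjusted p under 0.05 (5.23% of all): Hspa5 and Xbp1 were the lower and Nucb2 the higher. The groups did not overlap for 3 genes in each direction (4.41% of all higher, 4.88% lower). Without the 3 highest arrays they did not overlap for 6 genes upward (15.9% of all) and 13 downward (19.9%), and without the 2 lowest for 9 (13.4%) and 4 (15.5%). Slco1a4 was called higher with SAHA and tadalafil (0.43 ± 0.13, limma adjusted p = 0.861), and 7 of 7 choroid plexus markers were higher (median 0.11). These comparisons share the same vehicle arrays.

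**Figure D4:**
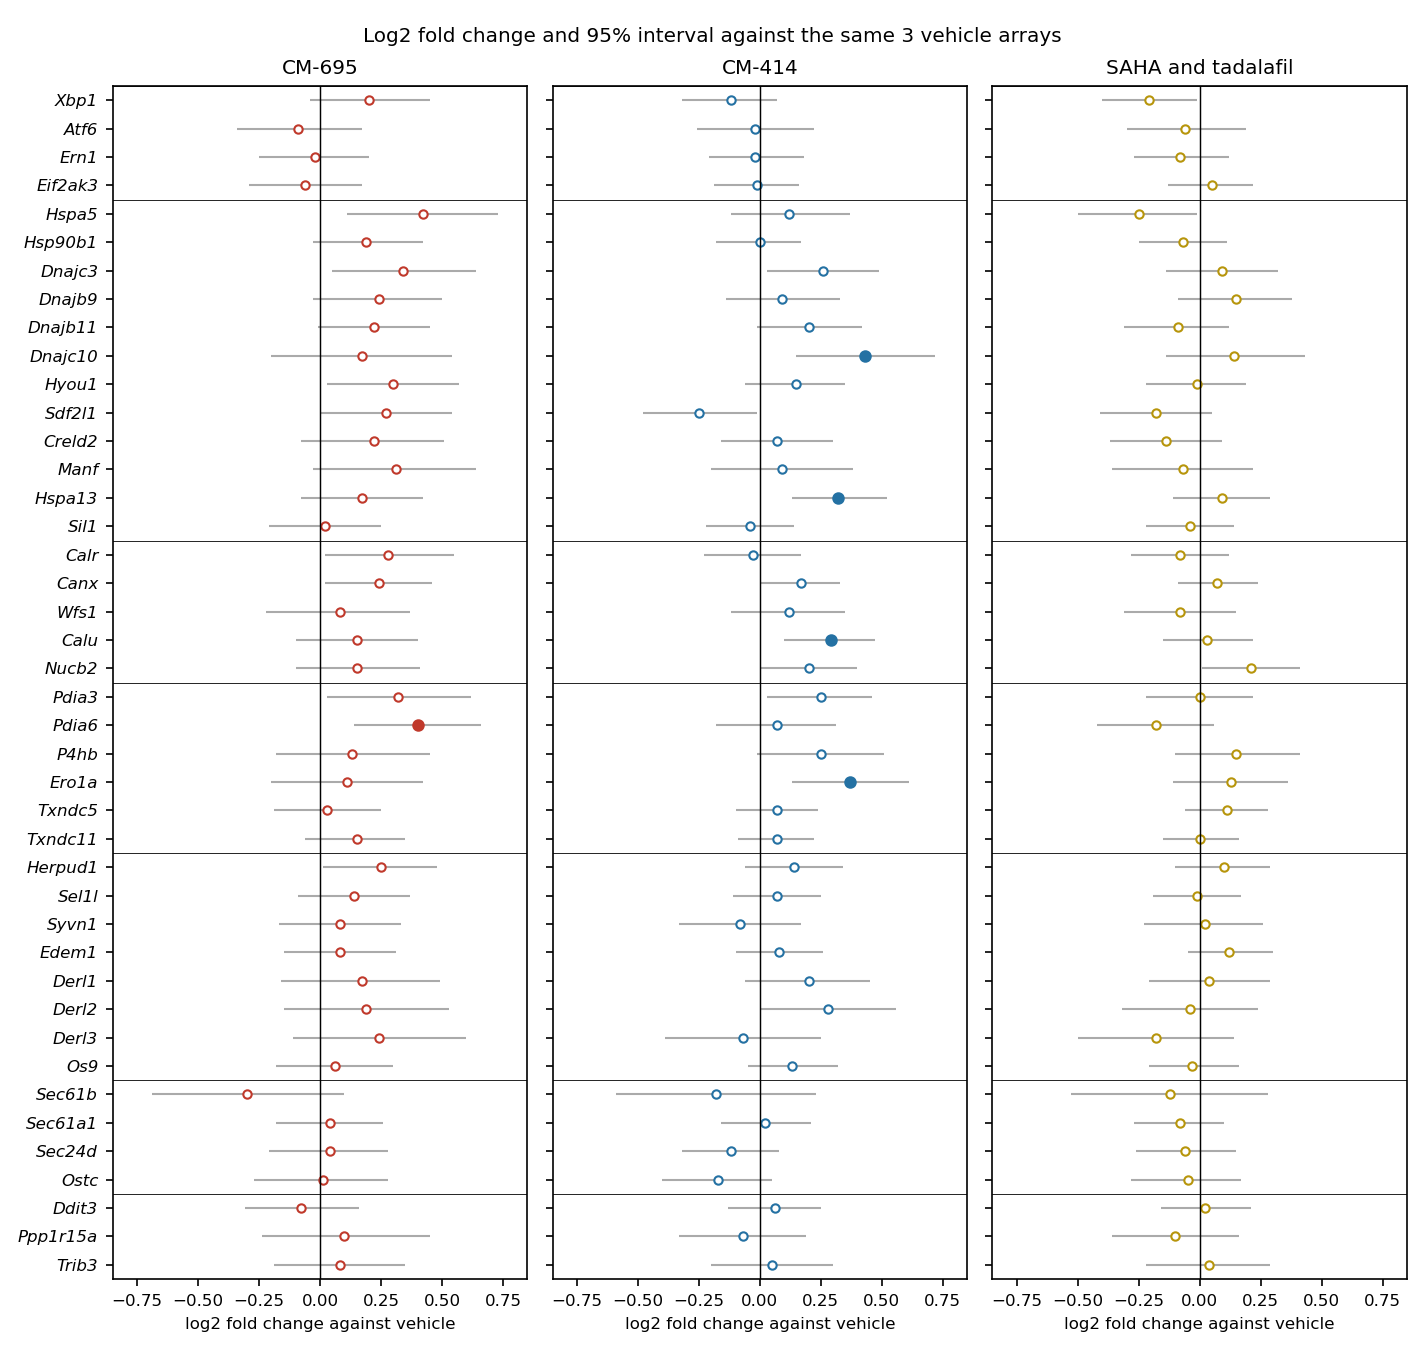
Log2 fold change of each gene (rows, by role) against the same 3 vehicle arrays, with a panel for each treatment; lines are 95% intervals from limma and filled points have an unadjusted p under 0.01. With CM-695, 37 of 42 points lie above 0 and Pdia6 is filled; with CM-414 the filled points are Dnajc10, Hspa13, Calu and Ero1a; with SAHA and tadalafil none is filled.

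Between the treatments, CM-695 against SAHA and tadalafil gave the most calls, 10 of 42 genes, all higher with CM-695, beside 1.74% of 35184 probe sets in either direction and 0.736% higher. They were Hspa5, Hsp90b1, Hyou1, Sdf2l1, Creld2, Dnajb11, Calr, Pdia6, Pdia3 and Xbp1. The median was 0.12 with 33 positive (55% of all), against 0.03 over all, and in 20 genes (47.6%, against 7.45%) all CM-695 arrays lay above all SAHA and tadalafil arrays, with 0 below (5.24%). Markers of cell types moved with this comparison: 9 of 9 hippocampal neuron markers were higher with CM-695 (median 0.15; summed level 13.68 to 13.79 against 13.55 to 13.61), 7 of 7 choroid plexus markers were lower (median -0.18) and 8 of 10 thalamus and habenula markers were lower (median -0.29). None of these marker genes was called, and their part in the result was not tested. Without the 3 highest arrays on the first component 6 genes were called, 5 of them among the 10, beside 3.45% of probe sets, and 26 were separated upward (27.4% of all) and 4 downward (18.5%). Without the 2 lowest 4 were called, Hspa5, Calr, Pdia6 and Xbp1, beside 1.02%, and 22 were separated (11.5%). CM-695 against CM-414 called Sdf2l1, Xbp1 and Calr, 3 of 42 and all higher with CM-695, beside 1.11% of 35326 (0.41% higher), with a median of 0.07 against 0 over all and 26 positive (49.2% of all). Here too 9 of 9 hippocampal neuron markers were higher with CM-695 (median 0.17), and Gjb6 was called lower (-0.46 ± 0.12, limma adjusted p = 0.757). CM-695 was above CM-414 on all arrays for 11 genes (26.2%, against 6.45%) and below it for 1, Ero1a (6.94%). Without the 3 highest arrays on the first component, Calr and Sdf2l1 were again called and Pdia6 was added, beside 1.49% of probe sets. Xbp1 was then not called, and 12 genes were separated upward (12% of all). Without the 2 lowest Sdf2l1 and Xbp1 were called, beside 1.18%. Neither of these 2 arrays is from CM-695 or CM-414, so their omission changed the estimate of the spread and not the values compared. CM-414 against SAHA and tadalafil called Hspa5 alone, 1 of 42, beside 1.18% of 35309 (0.694% higher), with a median of 0.08 against 0.02 and 31 positive (55.7% of all). All CM-414 arrays were nevertheless above all SAHA and tadalafil arrays for 17 genes (40.5%, against 10% of probe sets) and below for 0 (5.7%), and this was 17 (18.6%) without the 3 highest arrays and 19 (15.7%) without the 2 lowest, while Hspa5 was called in neither. In this comparison 7 of 7 choroid plexus markers (median -0.36) and 10 of 10 thalamus and habenula markers (median -0.26) were lower with CM-414.

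By branch, the 11 genes assigned mainly to ATF6 had the largest medians of the branches wherever CM-695 was compared. Their median was 0.25 against vehicle, 0.20 against CM-414 and 0.35 against SAHA and tadalafil. All CM-695 arrays lay above the other group for 8, 8 and 10 of the 11, against 5.28%, 6.45% and 7.45% of all probe sets. These comparisons share the same CM-695 arrays and are not independent. Atf6 itself was the gene with a negative value in each of these comparisons. For CM-414 and for SAHA and tadalafil against vehicle the ATF6 medians were 0.07 and -0.07. The 16 genes assigned mainly to IRE1 and XBP1 had medians of 0.16, 0.02 and 0.09 in the CM-695 comparisons, in the same order. The 5 genes of the PERK branch had 0.08, -0.05 and -0.01. The 10 genes with no single branch had 0.14, -0.04 and 0.10, and 0.15 with CM-414 against vehicle. Many of these genes answer to several branches, so the assignment is a sorting by main regulator, and the difference between branches was not tested.

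The promoter elements sorted the genes in a similar way. The 11 genes with ERSE or ERSE-II in the window had a median of 0.24 for CM-695 against vehicle, 0.16 against CM-414 and 0.32 against SAHA and tadalafil. All 11 were positive in each of these comparisons, which share the same CM-695 arrays. The 23 measured genes with a window but neither element had medians of 0.11, -0.04 and 0.09. The 8 genes without a window had 0.11, 0.04 and 0.10. Of the 10 genes called between CM-695 and SAHA with tadalafil, 6 carry an element, 3 have a window without one and Hyou1 is not in the promoter table. For CM-414 against vehicle both sets had a median of 0.07, and the 4 genes called there carry no element in the window or, for Hspa13, are not in the table. For CM-414 against SAHA and tadalafil the medians were 0.11 with an element and 0.06 without, and 0.14 for the 8 genes without a window. For SAHA and tadalafil against vehicle they were -0.08 and 0, with 4 of the 11 positive. Differences between the genes with and without an element were thus not limited to the CM-695 comparisons. In the rest of the table, 38 genes outside the set hold an element, of which 22 were measured. Their medians were 0.03, 0.01 and 0.02 in the CM-695 comparisons (the first over 21 genes). The members were listed as stress response genes, and this sorting is a description with no test.

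**Figure D5:**
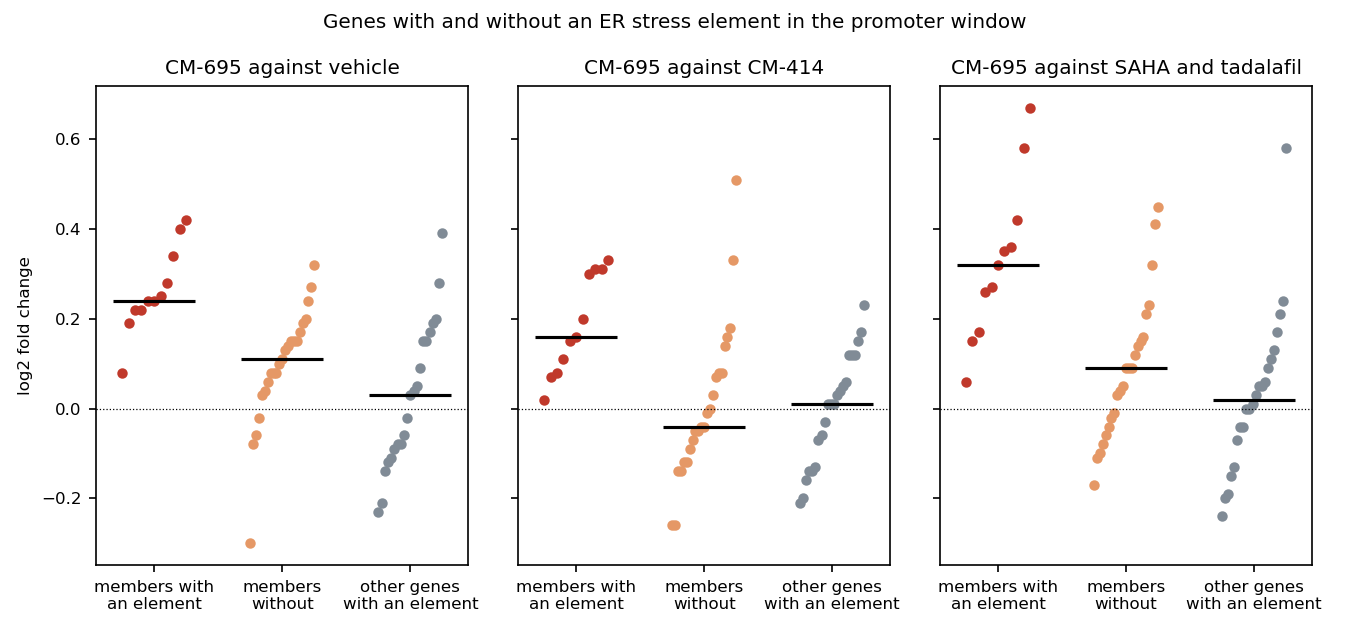
Log2 fold change of CM-695 against each other group, 1 point per gene, for the 11 genes of the set with ERSE or ERSE-II in the promoter window, the 23 with neither, and 21 or 22 other measured genes with an element; lines are medians. The first set lies above 0 in all panels, with medians of 0.24, 0.16 and 0.32, and the other genes with an element centre on 0.03, 0.01 and 0.02.

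Of 116 further genes of ER folding, translocation, glycosylation, degradation and transport, 109 were measured, and few were called. For CM-695 against vehicle limma called 0 of 109, beside 0.572% of probe sets with a single symbol. The median of the 109 genes was 0.08 with 85 positive, beside 0.02 and 55.2% positive over those probe sets. All 12 genes of N-glycosylation and glycan trimming were positive, with a median of 0.18. CM-414 against vehicle called 3, all higher, about as frequent as the 2.48% of probe sets with a single symbol. Tmx1, a thioredoxin-type ER membrane protein, differed by log2 0.54 ± 0.13 (limma adjusted p = 0.361). Sec63, which couples BiP to the translocation channel, differed by 0.28 ± 0.08 (limma adjusted p = 0.386). Ssr1, a subunit of the translocon-associated complex, differed by 0.38 ± 0.12 (limma adjusted p = 0.407). CM-695 against CM-414 called 2, Atf4, the transcription factor downstream of PERK (0.35 ± 0.09, adjusted p = 0.757), and Magt1, a subunit linked to oligosaccharide transfer (0.38 ± 0.12, adjusted p = 0.853). Atf4 was 0.21 ± 0.11 above vehicle with CM-695 and -0.14 ± 0.09 with CM-414, neither of them called. CM-695 against SAHA and tadalafil called Sec24c, a coat protein of vesicles leaving the ER (0.26 ± 0.07, adjusted p = 0.556), and CM-414 against SAHA and tadalafil called Sar1b, the GTPase that starts that coat (0.45 ± 0.13, adjusted p = 0.766). SAHA and tadalafil against vehicle called 0 of 109, beside 0.823% of probe sets with a single symbol. In these probe sets the share called was 0.886% for CM-695 against CM-414. It was 1.26% for CM-695 and 1.03% for CM-414 against SAHA and tadalafil. No gene of these lists was called lower in any of the 6 comparisons.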

How the data were processed

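The deposited values are log2 intensities from Affymetrix Mouse Gene 2.0 ST arrays of hippocampal RNA, which the authors had background-corrected, quantile-normalized and summarized by RMA (version not given in the sources used here). RMA pulls the arrays to one distribution, so a shift common to most genes would not be visible. Labels gave the group of each of the 12 arrays, whose small number sets the precision. A probe set entered a comparison when it exceeded 4 on the log2 scale (16 linear, after the study's methods) on each array concerned. For CM-695 against vehicle this kept 35195 probe sets, more than the study reports after its filter. The probe sets tested, and so the adjusted p, are not those of the study. Tests were two-sided, by limma 3.58.1 in R 4.3.3, and Benjamini-Hochberg adjusted over every probe set tested. For CM-695 against vehicle 6 arrays were fitted, following the study, and for the other 5 comparisons and the F test all 12.

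Members, roles, branches and further lists were chosen with earlier results of these data known, and no list carries a p. Values on every array are given for Hspa5, Hsp90b1, Atf6, Ern1, Eif2ak3, Xbp1, Ddit3, any gene called, and the gene of each role with the largest mean change against vehicle. Further list genes are named where called. Other genes were picked once values were known. The code was tested on simulated data. Alternatives covered the low-value filter, the arrays fitted, a replicate block, renormalization and centring, limma's prior, array weights, averaged probe sets and omission of each array; omission of the 3 highest or the 2 lowest arrays on the first principal component was added after seeing the data. Promoters are RefSeq windows of GRCm38.p6. Plots used matplotlib 3.10.9 (Python 3.11.15).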

Additional observations from a re-analysis of the deposited data

How the results depend on the processing

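The medians over the set kept their sign in the alternatives run, except that of SAHA and tadalafil against vehicle, which ran from -0.03 to 0 without single arrays, and no called gene reversed. The counts of calls were less stable. For CM-695 against vehicle, the 1 call became 6 (Hspa5, Canx, Pdia3, Pdia6, Dnajc3 and Hyou1) when all 12 arrays were fitted together, 3 with an intensity trend in the prior, 0 with the replicate block and 0 without either the 3 highest or the 2 lowest arrays on the first component, and ranged from 0 to 1 when single arrays were left out. Its median, 0.15, ranged from 0.11 to 0.19, the highest without vehicle replicate 1. For CM-414 against vehicle, 4 calls (2.45% of all) became 1 without the 2 lowest arrays (1.81%) and 1 to 2 without single arrays (1.27% to 2.3%). For CM-695 against CM-414, 3 (1.11%) became 1 to 4 without single arrays (0.756% to 1.46%). For CM-695 against SAHA and tadalafil, 10 (1.74% of all) became 6 with only the 6 arrays of the groups (1.49%) and 6 with the replicate block (1.37%). The count was 6 without the 3 highest arrays (3.45%) and 4 without the 2 lowest (1.02%). It was 5 to 8 without single arrays (1.04% to 2.36%). For CM-414 against SAHA and tadalafil, 1 (1.18% of all) became 2 with a log2 minimum of 5 (1.29%) and 3 with repeated quantile normalization (1.28%). The count was 0 with median centring (1.11%), 3 with an intensity trend (1.43%) and 2 with array weights (2.57%). It was 0 without the 3 highest (2.62%) or the 2 lowest arrays (0.951%), and 0 to 3 without single arrays (0.777% to 1.19%). The F test's 5 became 2 without the 3 highest, 3 without the 2 lowest, and 3 to 7 without single arrays. These F test counts have no share over all probe sets beside them. SAHA and tadalafil against vehicle stayed at 0 throughout, beside 0.818% to 1.89% of all probe sets. The cause of these shifts was not tested.

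The replicate numbers gave no sign of pairing the samples. Same-numbered arrays had deviations correlated at -0.32 to 0.16 over 18 pairs, and 8 of 36 correlated best with their own number. With 3 arrays per group this cannot exclude something shared by arrays of the same number. All 42 genes passed the filter on all arrays. Counts of highest and lowest group means and of calls among the further pathway genes were not computed without the highest or lowest arrays.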
